A study of Bos taurus with 6 samples.

Results

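TRAPP is a multisubunit complex that catches transport vesicles at the Golgi, and the expression of its genes was examined here in bovine preadipocytes. The complex was selected on the value of 1 of its subunits, TRAPPC4, which was the 1 gene of 12422 tested (0.00805%) with an adjusted p under 0.05 in limma between the transfection groups. The other 9 members, TRAPPC1, TRAPPC2L, TRAPPC3, TRAPPC5, TRAPPC6A, TRAPPC6B, TRAPPC8, TRAPPC9 and TRAPPC10, entered by their names as subunits. The 10 members are among 23475 genes listed, and each was matched by its symbol. Because TRAPPC4 was chosen by the difference between these libraries, its values are given as a description, and no test is read from them. Its adjusted p values only show how the selection depended on the settings.

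RNA was sequenced from 3 samples transfected with bta-miR-484 agomir and from 3 transfected with agomir NC, all at 48 h. An agomir is a chemically modified RNA duplex that raises the amount of a miRNA in a cell, and agomir NC is the negative control duplex. The labels call the cells adipocytes, and the methods describe preadipocytes isolated from the subcutaneous fat of calves and grown in high-glucose medium with fetal bovine serum. The sources do not say if separate calves or separate dishes gave the samples of a group, so p-values measure the spread between these samples, which may be technical. The comparison was made to find genes whose expression changes when the miRNA is in excess. Expression is given in FPKM, fragments per length of transcript and relative to all mapped fragments, which allows levels of different genes to be compared. The depth of the libraries is unknown, because FPKM holds no read numbers. Fold changes are on the log2(FPKM + 0.5) scale, on which changes of genes with low FPKM appear too small, and are signed as agomir minus agomir NC.

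Mesenchymal markers were abundant and those of mature fat cells were low. Of 9 mesenchymal and preadipocyte markers, 8 were above 0.5 FPKM in every library, and they summed to between 17587 and 18743 FPKM, with the collagen gene COL3A1 the most abundant. DLK1, a preadipocyte marker, was listed at 0 in all 6 libraries. PDGFRA, a receptor of adipocyte progenitors, was at 165 ± 1.90 FPKM in agomir samples and 167 ± 5.09 FPKM in agomir NC samples (SD, n = 3 each). The 8 markers of mature adipocytes summed to between 11.02 and 12.6 FPKM, LPL being the most abundant by the mean of all 6 libraries, and ADIPOQ, which encodes adiponectin, was between 0.0763 and 0.197 FPKM. LEP and CIDEC were listed at 0 in 4 libraries each. Both sums overlapped between the groups. Of single markers, named after their values were seen, PPARG was at 3.86 ± 0.157 FPKM in agomir samples and 3.23 ± 0.237 FPKM in agomir NC samples, ENG at 53.97 ± 0.252 and 57.0 ± 1.05 FPKM, and DCN at 2863 ± 31.3 and 3114 ± 129 FPKM (SD, n = 3 each), with groups that did not overlap. FABP4, a fatty acid carrier of the mature adipocyte list, lay in the direction opposite to PPARG, at 1.896 ± 0.3999 and 2.89 ± 0.679 FPKM (SD, n = 3 each), with groups that overlapped. The other mature adipocyte markers tested, CEBPA, PLIN1 and LPL, were higher on average with the agomir, and their groups overlapped. Their log2 fold changes were 0.29 (SE 0.23), 0.14 (SE 0.14) and 0.058 (SE 0.099). Of the other mesenchymal markers tested, PDGFRA, THY1, COL3A1 and LUM were lower on average with the agomir and COL1A1 and PDGFRB higher. The groups of these markers overlapped. COL1A1 was at 6106 ± 276 and 5852 ± 365 FPKM, and PDGFRB at 133 ± 0.907 and 132 ± 9.63 FPKM (SD, n = 3 each). The part of these markers in the TRAPP differences was not tested. Markers of other cells were low. The 4 endothelial markers summed to at most 4.54 FPKM, mostly VWF, the 5 leukocyte markers to at most 2.06 FPKM, mostly CD68, 3 skeletal muscle markers to at most 0.479 FPKM, mostly DES, and the 3 epithelial markers to at most 0.379 FPKM, with EPCAM the most abundant. In bulk RNA, a change in the amount of RNA per cell and a change in the share of cells cannot be told apart.

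TRAPP acts at the step where a vesicle is held near its target membrane before fusion, and it is also the exchange factor that loads Rab GTPases with GTP. A shared core is built from small subunits, and larger subunits attached to this core make TRAPPII, which acts at the Golgi and on recycling membranes, and TRAPPIII, which acts between the endoplasmic reticulum and the Golgi and in autophagy. Preadipocytes secrete much collagen along this route, and in fat cells the Rab proteins that TRAPP activates are also found on lipid droplets.

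In the core, the groups were furthest apart in TRAPPC4. TRAPPC4 is one of the subunits that form the surface where the Rab protein is bound. It was at 15.01, 15.3 and 15.5 FPKM in agomir replicates 1, 2 and 3 and at 9.43, 9.89 and 10.2 FPKM in agomir NC replicates 1, 2 and 3. The agomir libraries lay close together and all above the agomir NC libraries, which were also close together. The coefficient of variation was 1.60% with the agomir and 4.14% with the agomir NC, and the mean was 15.3 ± 0.244 against 9.85 ± 0.408 FPKM (SD, n = 3 each). The ratio of these means was 1.55, and the log2 fold change was 0.61 (standard error, SE, 0.059), and it stayed between 0.58 and 0.63 over the 15 other settings, while the adjusted p was above 0.05 in 8 of them. These are the values that chose the complex.

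TRAPPC1 pairs with TRAPPC4 at the Rab-binding surface. It was at 12.7, 12.9 and 17.1 FPKM in agomir samples and at 13.3, 12.8 and 16.0 FPKM in agomir NC samples. Replicate 3 was the highest library in both groups. The groups overlapped, although agomir replicate 3 was above every agomir NC library. Its log2 fold change was 0.019 (SE 0.12, 95% interval -0.25 to 0.28, adjusted p = 0.972 in limma). Its sign changed with single libraries, the value being -0.11 when agomir replicate 3 was left out, -0.042 and -0.014 when agomir NC replicates 2 and 1 were left out in turn, and 0.11 when agomir NC replicate 3 was, and it was -0.0089 under quantile normalization. The ratio of TRAPPC4 to TRAPPC1 in FPKM was 1.18, 1.18 and 0.906 with the agomir and 0.710, 0.775 and 0.642 with the agomir NC. TRAPPC4 was therefore below TRAPPC1 in all agomir NC libraries and above it in 2 of the 3 agomir libraries.

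TRAPPC3, a lipid-modified subunit at the centre of the core, was at 13.6, 10.7 and 11.9 FPKM in agomir samples and at 12.5, 12.5 and 12.6 FPKM in agomir NC samples. The control libraries were nearly equal and fell inside the wider range of the agomir libraries. Its log2 fold change was -0.063 (SE 0.083, adjusted p = 0.823 in limma). The ratio of TRAPPC4 to TRAPPC3 was 1.28 ± 0.166 with the agomir and 0.786 ± 0.0283 with the agomir NC (SD, n = 3 each).

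TRAPPC5, another small core subunit, was the most abundant TRAPP gene in every library. It was at 35.0, 31.4 and 32.2 FPKM in agomir samples and at 30.9, 35.5 and 38.8 FPKM in agomir NC samples. Both groups spread over several FPKM and overlapped, and the log2 fold change was -0.088 (SE 0.081, 95% interval -0.27 to 0.093, adjusted p = 0.734 in limma). That value was -0.013 without agomir NC replicate 3 and -0.18 without agomir NC replicate 1.

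TRAPPC2L resembles TRAPPC2, the core subunit known for its loss in a skeletal dysplasia. TRAPPC2L was at 7.95, 6.40 and 6.97 FPKM in agomir samples and at 6.56, 5.45 and 6.07 FPKM in agomir NC samples. The lowest agomir library lay under the highest agomir NC library, so the groups overlapped. Its log2 fold change was 0.22 (SE 0.097, 95% interval 0.0012 to 0.44, adjusted p = 0.454 in limma), and it was 0.14 without agomir replicate 1 and 0.16 without agomir NC replicate 2. TRAPPC2 itself, which is not among the members, was at 9.41 ± 1.35 FPKM in agomir samples and 10.0 ± 0.949 FPKM in agomir NC samples (SD, n = 3 each), giving a log2 fold change of -0.092 (SE 0.10). That value was -0.20 without agomir replicate 3 and -0.033 without agomir replicate 1.

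TRAPPC6A and TRAPPC6B are alternative copies of the same position in the core. TRAPPC6A had the lowest mean of the members in both groups, at 2.45, 2.53 and 3.498 FPKM in agomir samples and 3.53, 2.76 and 2.83 FPKM in agomir NC samples. TRAPPC6B was at 8.97, 9.97 and 8.20 FPKM in agomir samples and 9.74, 8.32 and 9.26 FPKM in agomir NC samples. In both genes the libraries of the groups were interleaved. TRAPPC6B exceeded TRAPPC6A in all 6 libraries, by a ratio of 3.31 ± 0.851 with the agomir and 3.02 ± 0.257 with the agomir NC (SD, n = 3 each). Fold changes on the log2 scale were -0.095 (SE 0.14) for TRAPPC6A and -0.011 (SE 0.088) for TRAPPC6B, with adjusted p values of 0.849 and 0.981 in limma.

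The TRAPPII subunits TRAPPC9 and TRAPPC10 form the arms that are added to the core in that complex. TRAPPC9 was at 4.0005, 3.42 and 3.49 FPKM in agomir samples and 3.58, 4.01 and 3.59 FPKM in agomir NC samples. One library of each group was near the top of the range and the others were lower, so the groups overlapped. TRAPPC9 had a log2 fold change of -0.031 (SE 0.095, adjusted p = 0.937 in limma). TRAPPC10 was at 8.14, 8.63 and 8.36 FPKM in agomir samples and 8.02, 8.06 and 6.94 FPKM in agomir NC samples. All agomir libraries were above all control libraries, but the lowest agomir library and the highest control library nearly touched, and the groups overlapped under median-ratio scaling and under quantile normalization. For TRAPPC10 the log2 fold change was 0.12 (SE 0.077, 95% interval -0.050 to 0.29, adjusted p = 0.605 in limma), and it was 0.056 without agomir NC replicate 3.

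TRAPPC8, which brings the TRAPPIII complex to membranes, was the most abundant large subunit. It was at 17.4, 18.6 and 18.1 FPKM in agomir samples and at 17.2, 16.0 and 15.7 FPKM in agomir NC samples. Each agomir library was above each agomir NC library, also under both other scalings, although the closest libraries of the groups were near each other. Its mean of 18.1 ± 0.587 FPKM stood against 16.3 ± 0.824 FPKM (SD, n = 3 each), and the log2 fold change was 0.15 (SE 0.059, 95% interval 0.015 to 0.28). The adjusted p was 0.409 in limma, so the difference did not pass the threshold over all genes.

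The other TRAPPIII subunits, which are not members, overlapped between the groups. TRAPPC11 was at 8.62 ± 0.738 FPKM in agomir samples and 8.44 ± 0.225 FPKM in agomir NC samples, and TRAPPC12 at 9.26 ± 0.934 and 9.07 ± 0.485 FPKM (SD, n = 3 each). TRAPPC13 was at 12.2 ± 1.39 and 11.1 ± 0.719 FPKM (SD, n = 3 each), giving a log2 fold change of 0.12 (SE 0.088, adjusted p = 0.646 in limma) that ranged from 0.060 without agomir replicate 2 to 0.21 without agomir replicate 3. TRAPPC3L, a relative of TRAPPC3, was listed at 0 in all 6 libraries, and TRAPPC14 was not analysed here. Of 16 TRAPP genes considered, 15 had a row and 14 passed the filter of at least 0.5 FPKM on average.

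**Figure D1:**
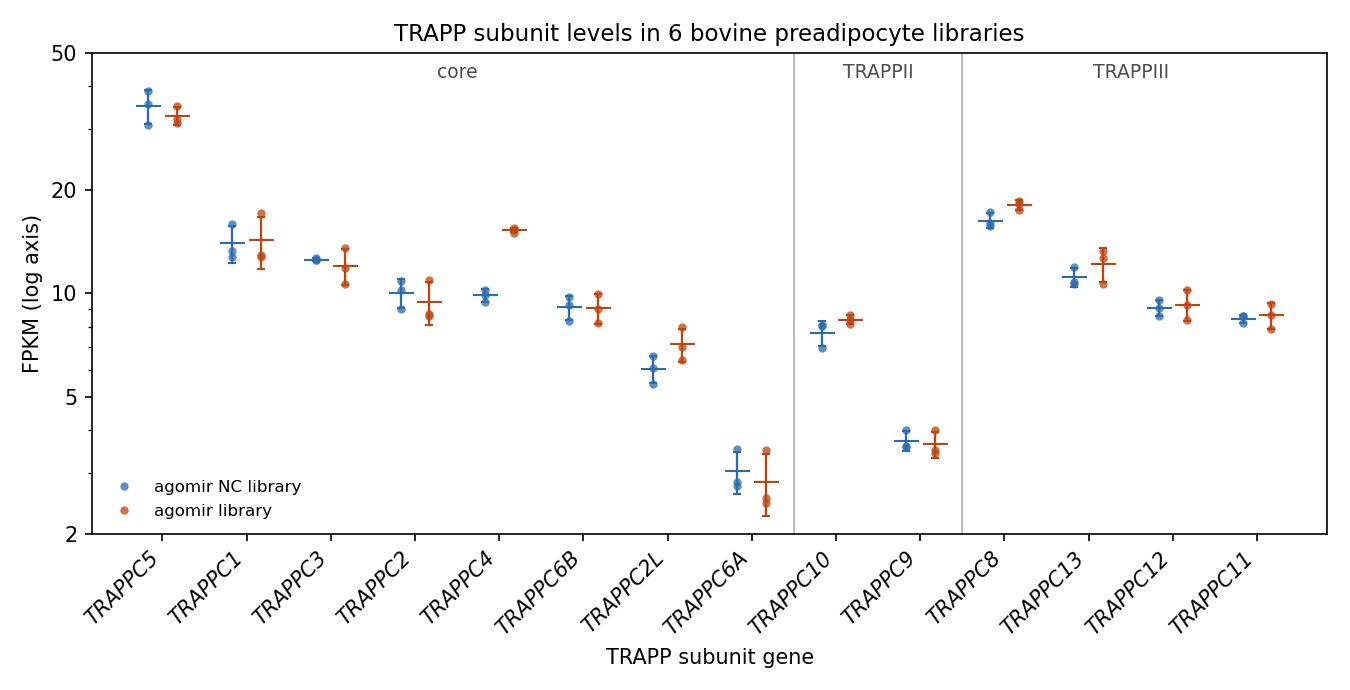
FPKM (log axis) of 14 TRAPP genes in the 3 agomir NC libraries (blue) and the 3 agomir libraries (orange), with the mean as a long bar and the SD as whiskers, ordered within core, TRAPPII and TRAPPIII by their level with the agomir NC. TRAPPC4 is at 9.85 FPKM in agomir NC samples and 15.3 FPKM in agomir samples, a gap wider than its whiskers, and TRAPPC5 has the highest mean and TRAPPC6A the lowest in both groups.

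All 10 members passed the filter. At an unadjusted p of 0.05 in limma, 3 of the 10 members were higher with the agomir, TRAPPC4, TRAPPC8 and TRAPPC2L, against 6.63% of all genes, and 0 were lower, against 4.31%. All agomir libraries were above all agomir NC libraries in 3 members, TRAPPC4, TRAPPC8 and TRAPPC10, against 10.9% of all genes, and below in 0 members, against 6.36%. TRAPPC4 was selected on this comparison, and nothing is read from these counts. In either direction, the number of members past an unadjusted p of 0.05 was 1 under quantile normalization and when agomir replicate 3, agomir NC replicate 2 or agomir NC replicate 3 was left out. It was 4 without agomir NC replicate 1, when TRAPPC5 was added as a lower gene, with a log2 fold change of -0.18. Among all genes, the number was 1359 of 12422 in the main fit and 1325 of 12422 under quantile normalization. It was 1101 of 12431 without agomir replicate 3 and 1423 of 12403 without agomir NC replicate 1. Without agomir NC replicates 2 and 3 in turn it was 1189 of 12421 and 1119 of 12415. With median-ratio or quantile scaling, groups did not overlap in 2 members, TRAPPC4 and TRAPPC8, both above, while among all genes 8.81% were above and 8.15% below with median-ratio scaling, and 8.94% and 7.30% with quantile scaling. Among all genes, the split of 824 higher and 535 lower at an unadjusted p of 0.05 became 657 higher and 706 lower with median-ratio scaling.

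Without TRAPPC4, the log2 fold changes of the 9 members ran from -0.095 to 0.22, 4 of them positive and 5 negative, and their adjusted p values in limma from 0.409 to 0.981. Under quantile normalization 3 were positive, as TRAPPC1 turned negative. The median log2 fold change was -0.011 for these 9 and 0.0042 for the 10 members, beside 0.013 for all genes tested. The median of the 10 kept its sign in 12 of the 15 other settings. It was -0.012 with median-ratio scaling, where that of all genes was -0.0020. It was -0.019 with quantile normalization, -0.013 without agomir NC replicate 2 and 0.049 without agomir replicate 2. Standard errors of the 9 were between 0.059 and 0.14. The 4 other TRAPP genes tested had log2 fold changes from -0.092 to 0.12.

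**Figure D2:**
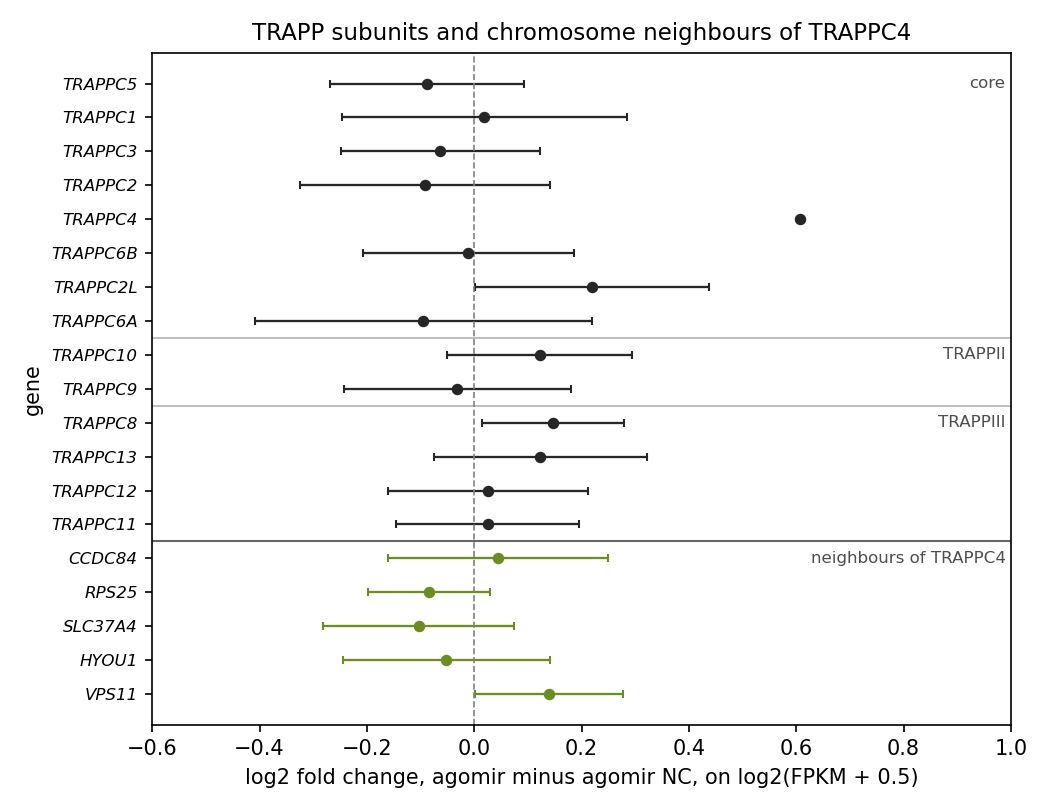
Log2 fold change (agomir minus agomir NC, on log2(FPKM + 0.5)) for 14 TRAPP genes (black) and for the tested chromosome neighbours of TRAPPC4 (green), with 0 as a dashed line and whiskers for the 95% intervals from limma of all genes but TRAPPC4, which was selected on this comparison. TRAPPC4, at 0.61, lies to the right of all other genes drawn, and the next highest is TRAPPC2L, at 0.22.

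In order of level with the agomir NC, TRAPPC5 was first among the 14 TRAPP genes and did not overlap with the next. TRAPPC8 and TRAPPC1 followed with overlapping ranges, then TRAPPC3, which was apart from both its neighbours in the order. TRAPPC13, TRAPPC2, TRAPPC4, TRAPPC6B and TRAPPC12 formed a run in which each overlapped with the next. TRAPPC11, TRAPPC10, TRAPPC2L, TRAPPC9 and TRAPPC6A followed, each apart from the next, although the range of TRAPPC11 overlapped that of TRAPPC6B. With the agomir, TRAPPC5 and TRAPPC8 were again first and second, each apart from the next, and TRAPPC4 came next. The genes from TRAPPC4 down to TRAPPC10 then each overlapped with the next in order, which were TRAPPC1, TRAPPC13, TRAPPC3, TRAPPC2, TRAPPC12, TRAPPC6B, TRAPPC11 and TRAPPC10. TRAPPC2L was apart from TRAPPC10, its neighbour in the order, and from TRAPPC9, although its range overlapped that of TRAPPC11. TRAPPC9 and TRAPPC6A overlapped at the bottom. TRAPPC4 thus had rank 7 of 14 with the agomir NC and rank 3 of 14 with the agomir.

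The 10 members summed to 125, 119.8 and 125 FPKM in agomir samples and to 115, 115 and 122 FPKM in agomir NC samples. The agomir NC replicate 3 library was above the lowest agomir library. The mean sum was 123 ± 3.17 with the agomir and 117 ± 4.07 FPKM in agomir NC samples, and without TRAPPC4 it was 108 ± 3.21 and 107 ± 3.72 FPKM (SD, n = 3 each). TRAPPC4 made up 11.98%, 12.8% and 12.4% of the summed FPKM in agomir samples and 8.22%, 8.58% and 8.40% with the agomir NC. The share of TRAPPC5, the largest of any member, was 26.6 ± 1.198% with the agomir and 29.9 ± 2.60% with the agomir NC (SD, n = 3 each).

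Among all genes tested, TRAPPC4 was at the 68.1 ± 0.510 percentile of FPKM in agomir samples and at the 55.4 ± 1.35 percentile in agomir NC samples (SD, n = 3 each). TRAPPC4 was selected on this comparison, so nothing is read from the ranks of its fold change. The size of its log2 fold change had rank 41 of 12422. Among the 8010 genes averaging at least 5 FPKM, a cut used for this description only, it had rank 5. The 4 genes ahead were LOC112443502, LOC112445063, LOC104969934 and UBB, which were named after their values were seen. LOC112443502 was listed at 0 in 1 library and between 16.0 and 21.7 FPKM in the others, and LOC104969934 was listed at 0 in 1 library and between 2.73 and 9.15 FPKM in the others. UBB, a ubiquitin gene, was at 106 FPKM in agomir replicate 3 and between 308 and 349 FPKM in the other libraries. LOC112445063 was at 1.498, 6.75 and 2.26 FPKM in agomir samples and at 7.45, 8.21 and 7.63 FPKM in agomir NC samples. Among the TRAPP genes other than TRAPPC4, the residual SD on the log2 scale ran from 0.059 in TRAPPC8 to 0.21 in TRAPPC6A.

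The genes most like TRAPPC4 over the 6 libraries were found by the root mean square difference of log2 values after each gene was centred on its own mean. SCARA5, a scavenger receptor that binds ferritin, was the closest at 0.072, beside a median of 0.31 over all genes. It was at 12.5, 12.5 and 13.2 FPKM in agomir samples and at 9.05, 8.40 and 8.81 FPKM in agomir NC samples. Its groups were apart and each was tight, which follows from picking the gene for its likeness to TRAPPC4. STRADB, a pseudokinase that binds the kinase LKB1, was at a difference of 0.0996, PPARA, a nuclear receptor of fatty acid oxidation, at 0.11, RPIA, a ribose phosphate isomerase, at 0.11, and TNXB, which encodes the matrix protein tenascin X, at 0.11. Their log2 fold changes were 0.52 for SCARA5, 0.58 for STRADB, 0.65 for PPARA, 0.52 for RPIA and 0.53 for TNXB, and likeness to TRAPPC4 fixes that sign. No other TRAPP gene was near. TRAPPC2L was the closest of them at 0.23, with rank 815 of 12421, then TRAPPC8 at 0.24 with rank 1051, and TRAPPC6A was the farthest at 0.395.

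The chromosome neighbours of TRAPPC4 were taken from the order of genes in the RefSeq table. On one side lie RPS25, CENATAC (listed as CCDC84) and FOXR1, and on the other SLC37A4, HYOU1 and VPS11, counting away from TRAPPC4. RPS25, a ribosomal protein gene next to TRAPPC4, was at 435 ± 18.9 FPKM in agomir samples and 461 ± 25.6 FPKM in agomir NC samples (SD, n = 3 each), giving a log2 fold change of -0.084 (SE 0.051). That value was -0.040 without agomir NC replicate 3 and -0.033 under quantile normalization. SLC37A4, the glucose 6-phosphate transporter gene on the other side, was at 4.77 ± 0.257 and 5.16 ± 0.206 FPKM (SD, n = 3 each), giving a log2 fold change of -0.10 (SE 0.079). Neither of the adjacent genes shared the sign of TRAPPC4, and the groups of both overlapped.

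Farther out, CCDC84, a gene of the minor spliceosome, had a log2 fold change of 0.044 (SE 0.092), and HYOU1, an endoplasmic reticulum chaperone, one of -0.052 (SE 0.086). That of CCDC84 was 0.0096 without agomir replicate 1 and 0.094 without agomir replicate 2. VPS11, a subunit of the HOPS and CORVET tethers of the endosome, was at 15.7, 15.6 and 14.1 FPKM in agomir samples and at 13.9, 13.3 and 13.8 FPKM in agomir NC samples. All agomir libraries were above the agomir NC libraries, by little in replicate 3. For VPS11 the log2 fold change was 0.14 (SE 0.062, adjusted p = 0.453 in limma). FOXR1, a forkhead gene, was listed at 0 in all 6 libraries. Of the 5 neighbours tested, 1 was higher at an unadjusted p of 0.05, VPS11, and 0 were lower, beside 6.63% and 4.31% of all genes.

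Rab GTPases are the proteins that TRAPP activates, and their groups overlapped. All 5 genes listed, RAB1A, RAB1B, RAB11A, RAB11B and RAB18, were tested, and 0 were past an unadjusted p of 0.05 in limma, where 6.63% of all genes were higher and 4.31% lower. RAB1A, which acts between the endoplasmic reticulum and the Golgi, was the most abundant, at 108 ± 3.92 FPKM in agomir samples and 108 ± 7.43 FPKM in agomir NC samples (SD, n = 3 each). Its log2 fold change was 0.0020 (SE 0.056, 95% interval -0.12 to 0.13) and was negative under median-ratio scaling. The 5 genes lay between 23.6 and 112 FPKM, so that each exceeded TRAPPC4 in every library.

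Downstream of Rab1, the 7 effector and Golgi matrix genes were all tested and 0 were past an unadjusted p of 0.05, beside the same shares of all genes. GORASP2, which stacks the Golgi cisternae, was the most abundant of them at 48.4 ± 0.624 FPKM in agomir samples and 48.1 ± 2.33 FPKM in agomir NC samples (SD, n = 3 each). The list for the SNAREs that fuse vesicles between the endoplasmic reticulum and the Golgi held 11 genes, including SCFD1, which is not a SNARE. Of these, 1 was higher and 0 lower at an unadjusted p of 0.05, beside 6.63% and 4.31% of all genes. This was BNIP1, named after its values were seen, with a log2 fold change of 0.32 (SE 0.10, adjusted p = 0.350 in limma) and groups that overlapped. The most abundant, YKT6, was at 46.0 ± 2.02 FPKM in agomir samples and 46.6 ± 2.96 FPKM in agomir NC samples (SD, n = 3 each).

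The COPII coat forms the vesicles that TRAPP receives from the endoplasmic reticulum. Of its 15 genes, 14 passed the filter, the exception being SEC16B. At an unadjusted p of 0.05, 1 was higher and 0 lower, beside 6.63% and 4.31% of all genes. With median-ratio scaling 1 was higher and 1 lower, beside 657 and 706 of all 12422 genes. The higher gene in the values as deposited, SEC24A, selects cargo for the coat, and it was at 13.7, 14.1 and 14.5 FPKM in agomir samples and at 12.6, 12.3 and 12.2 FPKM in agomir NC samples. All its agomir libraries were above the agomir NC libraries, and the spread in each group was small. For SEC24A the log2 fold change was 0.18 (SE 0.056, adjusted p = 0.333 in limma). SEC23A, the most abundant, was at 80.6 ± 2.64 and 81.4 ± 5.395 FPKM (SD, n = 3 each).

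Of 33 genes of other tethering complexes, 4 were higher and 0 lower at an unadjusted p of 0.05, against 6.63% and 4.31% of all genes, and the 4 were EXOC5, COG4, NBAS and VPS11. The number higher was 1 with median-ratio scaling and 2 with quantile normalization. Among all 12422 genes it was 824 as deposited, 657 with median-ratio scaling and 696 with quantile normalization. EXOC5, an exocyst subunit, was at 22.5 ± 1.28 FPKM in agomir samples and 19.6 ± 1.64 FPKM in agomir NC samples (SD, n = 3 each), and its log2 fold change was 0.19 (SE 0.072, adjusted p = 0.393 in limma). NBAS, a subunit of the tether for vesicles that return to the endoplasmic reticulum, was at 12.2 ± 0.423 and 10.9 ± 0.796 FPKM (SD, n = 3 each), giving a log2 fold change of 0.16 (SE 0.069, adjusted p = 0.442 in limma). The groups did not overlap in EXOC5, NBAS and VPS11, and they overlapped in COG4, a Golgi tether subunit named after its values were seen. VPS41, the most abundant of these genes, was at 23.7 ± 1.00 and 23.9 ± 1.02 FPKM (SD, n = 3 each). By complex, the median log2 fold change was 0.028 over 8 COG subunits, 0.034 over 9 exocyst subunits, 0.057 over 5 GARP and EARP subunits, 0.014 over 8 HOPS and CORVET subunits and 0.16 over the 3 genes NBAS, ZW10 and RINT1. No tether subunit had a log2 fold change as large as TRAPPC4, the highest being 0.30 for EXOC6, which was below 1 FPKM.

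TRAPPIII also serves autophagy, and all 25 autophagy genes listed were tested. At an unadjusted p of 0.05, 2 were higher and 1 lower with the agomir, against 6.63% and 4.31% of all genes. With median-ratio scaling and with quantile normalization, 0 were higher and 2 lower under each. Among all 12422 genes, 657 were higher and 706 lower with median-ratio scaling, and 696 and 629 with quantile normalization. MAP1LC3B, the protein of which is attached to the growing autophagosome, was at 33.1, 34.7 and 36.3 FPKM in agomir samples and 39.4, 38.0 and 38.6 FPKM in agomir NC samples. All agomir libraries were below all agomir NC libraries, and the agomir libraries were the more scattered. Its log2 fold change was -0.16 (SE 0.050, adjusted p = 0.344 in limma). ATG14, of the kinase complex that starts the autophagosome, was at 3.99 ± 0.445 FPKM in agomir samples and 3.28 ± 0.291 FPKM in agomir NC samples, and ATG12, a ubiquitin-like conjugation protein, at 55.8 ± 3.51 and 50.8 ± 2.81 FPKM (SD, n = 3 each). Their log2 fold changes were 0.25 (SE 0.11) and 0.13 (SE 0.060), with adjusted p values of 0.442 and 0.454 in limma. GABARAP, the most abundant autophagy gene, was at 175 ± 2.82 and 182 ± 13.5 FPKM (SD, n = 3 each).

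Over all 6 lists, 95 of 96 genes were tested, and 8 were higher and 1 was lower at an unadjusted p of 0.05, against 6.63% and 4.31% of all genes. With median-ratio scaling 3 were higher and 3 lower, beside 657 and 706 of all 12422 genes. With quantile normalization 4 were higher and 2 lower, beside 696 and 629 of all 12422 genes. Adjusted over all genes tested, 0 of the 95 were under 0.05 in limma, with adjusted p values from 0.333 to 0.993. The 9 genes past the unadjusted threshold became 5 without agomir replicate 3, agomir NC replicate 2 or agomir NC replicate 3 and with array weights, 4 without agomir replicate 2, and 10 without agomir NC replicate 1. Among all genes, 1359 became 1345 with array weights and between 1006 and 1423 with 1 library left out. The log2 fold change was positive in 61 of the 95 genes, 64.2%, beside 55.1% of all genes tested. The lists differed, with 78.8% positive for other tethering complexes, 78.6% for COPII and 71.4% for Rab1 effectors and Golgi matrix. It was 63.6% for the SNARE list, 60% for the Rab genes and 36% for autophagy. Over the 95 genes, the number positive was 49 with median-ratio scaling, where 49.1% of all genes were positive, and 51 with quantile normalization, where 51.0% were. The median log2 fold change over the 95 genes was 0.019, beside 0.013 for all genes tested.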

How the data were processed

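One FPKM value for each gene in each library was deposited by the authors. Their processing notes name fastp, HISAT2, StringTie and the build ARS-UCD1.2, without versions, and whether strand was used is not given in the sources used here. Genes averaging at least 0.5 FPKM over the libraries were compared as log2(FPKM + 0.5) with limma 3.58.1 in R 4.3.3, in a two-sided moderated test that used a variance trend, adjusted by Benjamini and Hochberg's method over all 12422 genes tested. The model was tested on simulated data. The smallest two-sided p of an exact permutation test of 3 libraries against 3 is 0.1, so none was used.

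The members, the partner lists and the cell type markers were chosen with earlier results of these data known. Named genes were the TRAPP genes, the most abundant gene of each partner list, list genes past an unadjusted p of 0.05 with groups that do not overlap (at most 4 a list), 3 neighbours on each side of TRAPPC4, and the 5 genes most like it. Any other gene was picked with its values in view. The order of neighbours was read from RefSeq's gene table (ARS-UCD2.0), without its coordinates. The alternatives were 2 pseudocounts, 2 filters, 2 scalings, no variance trend, array weights, a replicate block and each library left out. The counts of partner genes, the signs of lists and the overlaps of groups under these settings were added after the data were seen.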

Additional observations from a re-analysis of the deposited data

How the results depend on the processing

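The number of genes under an adjusted p of 0.05 was 1, and it fell to 0 with the replicate block, to 0 when low genes were kept and to 0 when the variance trend was dropped, where 1260, 1604 and 1249 genes were past an unadjusted p of 0.05 in limma. With 1 library left out it ranged from 0 to 2, being 0 without agomir replicate 1 or agomir NC replicate 2, and the single gene was LOC112445063, ZNF449 and AKAP12 without agomir replicate 2, agomir replicate 3 and agomir NC replicate 1. Without agomir NC replicate 3 the 2 genes were STRADB and TRAPPC4. Leaving out a library leaves fewer samples, and otherwise the cause was not tested.

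Of the 10 members, 3 were past an unadjusted p of 0.05, but 1 under quantile normalization and from 1 to 4 with 1 library left out. Among all genes, 1359 were past it, but 1325 under quantile normalization, 1345 with array weights and from 1006 to 1423 with 1 library left out. The 9 partner genes became 5 with array weights and from 4 to 10 with 1 library left out. TRAPPC4 was selected on this comparison, so nothing is read from the sign of its log2 fold change, which was positive in all 15 settings. Its adjusted p in limma was above 0.05 in 8 of them. The log2 fold change was lowest at 0.58 without agomir NC replicate 1 and highest at 0.63 without agomir NC replicate 3.

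Log2 fold changes near 0 reversed. RAB1A was at -0.014 and GORASP2 at -0.0067 with median-ratio scaling, RAB1A was at -0.0011 with array weights, and TRAPPC1 at -0.0089 with quantile normalization. With 1 library left out, the ranges were -0.056 to 0.034 for RAB1A, -0.018 to 0.048 for GORASP2, -0.066 to 0.027 for SEC23A, -0.063 to 0.028 for YKT6, -0.040 to 0.019 for VPS41, -0.13 to 0.033 for HYOU1 and -0.10 to 0.0023 for GABARAP. Among the TRAPP genes with 1 library left out, the ranges crossed 0 for TRAPPC1 (-0.11 to 0.11), TRAPPC6B (-0.079 to 0.054), TRAPPC9 (-0.093 to 0.015), TRAPPC12 (-0.044 to 0.094), TRAPPC3 (-0.15 to 0.017), TRAPPC6A (-0.23 to 0.0019) and TRAPPC11 (-0.031 to 0.087). In all, 30 values of single genes other than TRAPPC4 reversed, and the other 420 kept their sign, with an adjusted p above 0.05 as before. Of the main results, 91 values moved by less than the spread or, for counts, by at most 1.5 times, and 15 moved by more. The 91 include settings in which the median of the members changed sign.

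Deviations of libraries with the same replicate number correlated at -0.051, 0.053 and 0.039 over all genes tested. A correlation over all genes cannot show if the numbers stand for a shared calf, culture or batch, which the sources do not say. With the replicate block, 2 members were past an unadjusted p of 0.05, TRAPPC4 and TRAPPC2L, beside 1260 of all 12422 genes. Depth is unknown, which limits genes of low FPKM such as TRAPPC6A and EXOC6.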

Other observations

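UBB, a ubiquitin gene, was low in 1 library, which was noticed after the values were seen. It was at 314, 308 and 106 FPKM in agomir replicates 1, 2 and 3 and between 325 and 349 FPKM in agomir NC samples. TRAPPC4 was at 15.5 FPKM in agomir replicate 3, close to the other agomir libraries.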
